A study of Limonium bicolor with 5 samples.

Results

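Genes that make cuticle and wax lipids were followed over 5 developmental stages in Limonium bicolor, a plant whose leaf glands secrete salt. The leaves were first true leaves from tissue culture. The members were chosen by words in the description of the Arabidopsis locus that the deposited table pairs with each Limonium gene. Those words name 3-ketoacyl-CoA synthases, long-chain acyl-CoA synthetases, glycerol-3-phosphate acyltransferases, fatty acid hydroxylases, fatty acid and acyl-CoA reductases, eceriferum proteins and white-brown complex transporters, and the loci of CER5 and SHN1 were added. The rule found 50 of 18327 genes. According to the labels, stage A leaves were undifferentiated, and differentiated salt glands marked stage B, stomata stage C and the epidermis stage D. Stage E leaves were mature. Poly(A) RNA was sequenced from leaf pools of about 5000 (A), 4000 (B), 2000 (C), 1000 (D) and 1000 (E) leaves. The labels call the 2 lanes of a stage biological replicates, but the table holds 1 column per stage, so differences carry no replicate check and no p-value.

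The cuticle is the lipid layer that seals the outer face of the leaf epidermis. Its polyester, cutin, is built from fatty acids that are activated, hydroxylated and joined to glycerol. Its waxes start from very-long-chain fatty acids, which an elongase complex makes and which are then turned into alkanes or alcohols. ABCG-type transporters carry these products out of the cell. In Arabidopsis and other plants, epidermal cells do most of this work while the leaf surface expands. In Limonium the salt glands themselves arise from the epidermis and are wrapped in cuticle.

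Values are RPM, each gene's reads scaled to a common library total. They are not divided by transcript length, so levels are compared between stages and not between genes. A gene was called changed when log2(RPM + 1) differed by at least 1 and the higher stage reached 5 RPM. Folds are ratios of RPM with an exact 95% counting interval, which covers counting error only. Libraries held between 5939374 and 16556653 reads, and a count of 3 reads was 0.505 RPM in stage A and at most 0.232 RPM elsewhere. Stage C stood apart: loci paired with Arabidopsis chromosome 1 took 40.4% of its gene reads and between 24.4% and 28.3% in the other stages. All 4 epidermal markers were measured and summed to 125 RPM in stage A, 116 RPM in B, 43.7 RPM in C, 43.8 RPM in D and 71.5 RPM in E. Among them ATML1, an epidermal homeobox factor, stood between 11.2 and 58.8 RPM, while PDF1, another epidermal marker, had 0 reads in stage E. The 4 mesophyll markers summed to 646, 2092, 26696, 31243 and 8255 RPM from stage A to stage E. The root hair marker EXP7, a cell wall expansin, stood at 48.6 RPM in stage C and at most 0.505 RPM elsewhere. In pooled leaves, fewer cells of a type and less RNA per cell cannot be told apart.

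**Figure D1:**
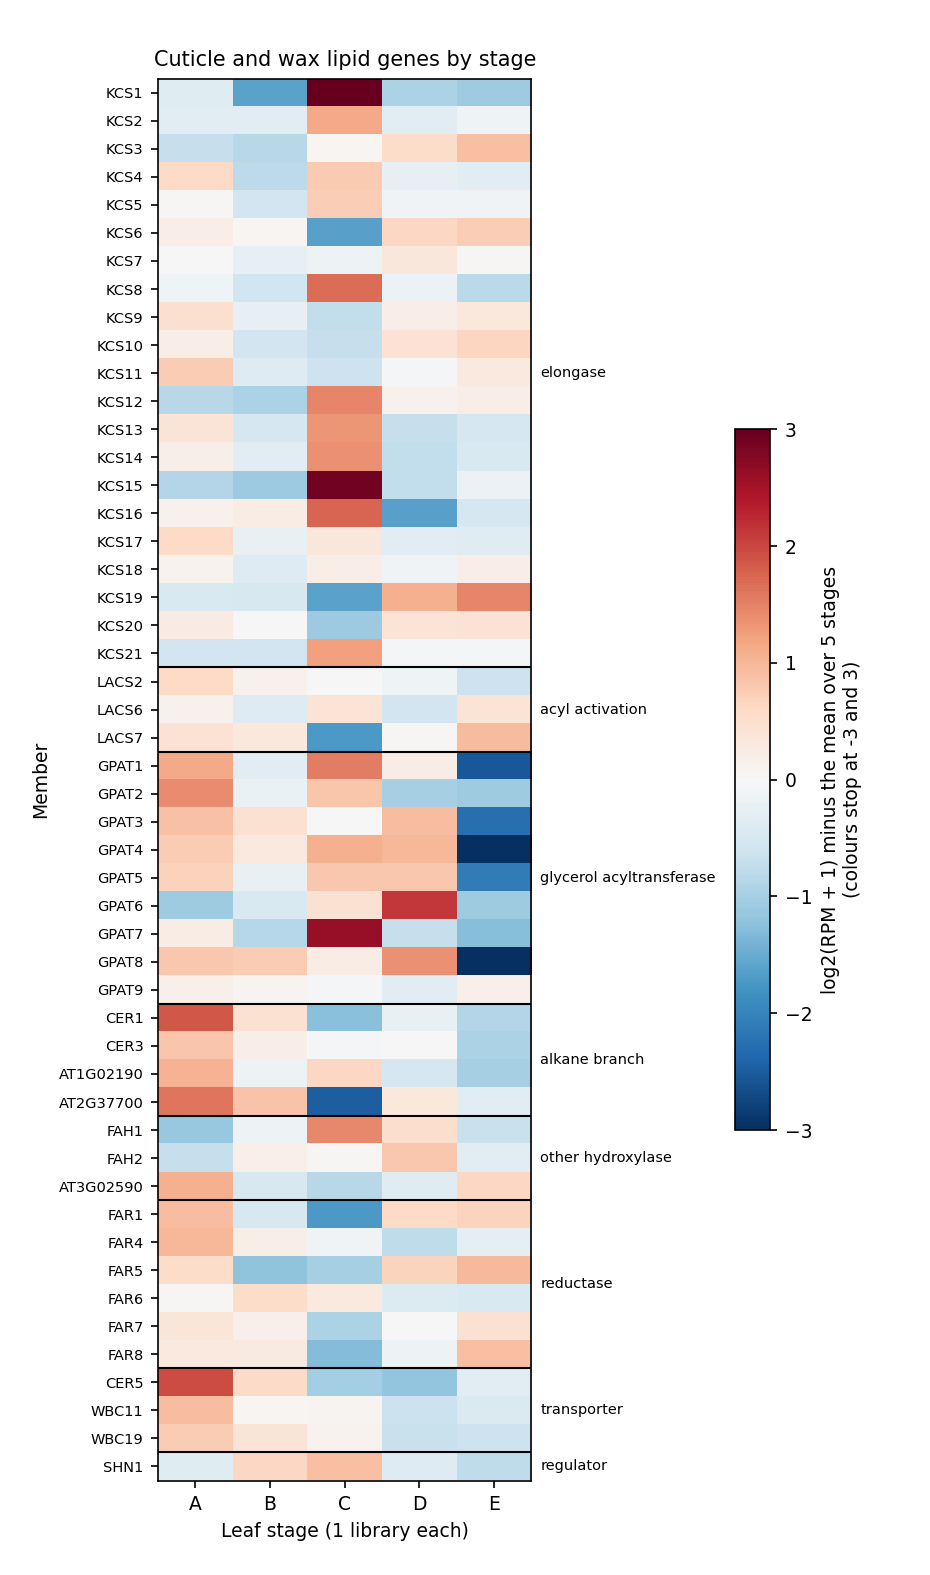
Heat map of the 50 members (rows, grouped by role) over the 5 leaf stages (columns, 1 library each), coloured by log2(RPM + 1) minus the member's mean over the stages. GPAT4 and GPAT8 are pale to red in stages A to D and dark blue in stage E, and KCS1 and KCS15 are dark red in stage C.

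Of the 50 members, 45 reached 5 RPM in some stage and could be called, 39 were called in at least 1 of the 6 comparisons and 11 in none. Among all genes 68.8% were called in at least 1. Summed over all members, the level was 5444 RPM in stage A, 3548 RPM in B, 3956 RPM in C, 4275 RPM in D and 3433 RPM in E. Among the 45 members that reached 5 RPM, 14 peaked in stage A, 0 in B, 17 in C, 6 in D and 8 in E. Over all 15603 genes that reached 5 RPM, the shares were 21.5%, 17.5%, 23.8%, 11.2% and 25.9% in the same order. With stage C left out, 21 of 43 members were highest in stage A, 1 was highest in B, 8 in D and 13 in E. Without stage C, 26.3% of all genes were highest in stage A, 26.1% in B, 16.1% in D and 31.6% in E.

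When salt glands had appeared, in stage B against stage A, every call among the members was a fall. Of the 50 members, 11 fell and 0 rose, beside 3.07% of all genes that fell and 7.4% that rose. After median-of-ratios scaling of the libraries, 13 members fell and 0 rose, with 797 of all genes lower and 969 higher. Before scaling, their median log2 difference was -0.48 and that of all genes 0.09. The members that fell came from several steps: elongases KCS1, KCS4 and KCS11, acyltransferases GPAT1 and GPAT2, alkane enzymes CER1 and AT1G02190, hydroxylase superfamily gene AT3G02590, reductases FAR1 and FAR5, and the transporter CER5. The epidermal markers summed to 116 RPM in stage B, against 125 RPM in stage A. The guard cell markers MYB60, FAMA and KAT1 summed to 36.0 RPM in stage B, against 63.1 RPM in stage A, and KAT1 among them fell. The meristem markers WUS, STM and KNAT1 summed to 2.96 RPM in stage B, against 15.8 RPM in stage A, and STM and KNAT1 fell. The mesophyll markers went the other way, at 2092 RPM in stage B, against 646 RPM in stage A. Phloem and xylem sums were also higher in stage B. The part of these cell types in the members' fall was not tested.

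**Figure D2:**
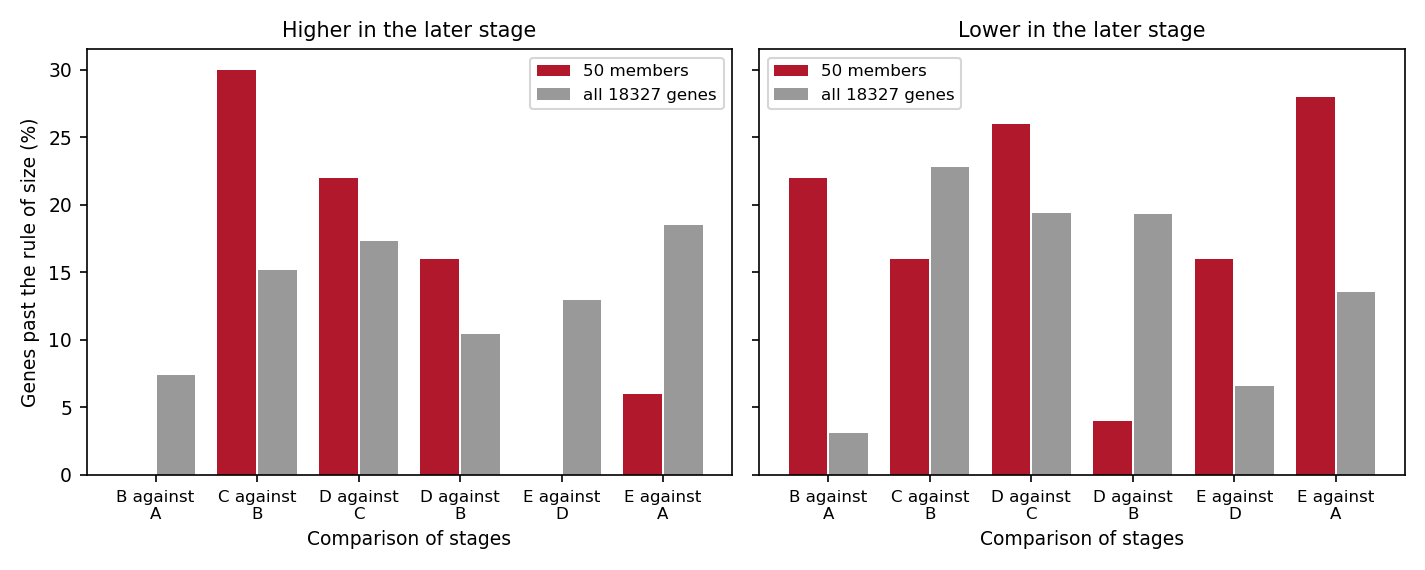
Percentage of genes past the rule of size in each comparison of stages, for the 50 members (red) and all 18327 genes (grey), higher (left) and lower (right) in the later stage. The share of members higher is 0 in stage B against stage A and in stage E against stage D.

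The wax alkane branch was highest in the undifferentiated leaf. CER1 (LB00098, paired with AT1G02205), which with CER3 forms the alkanes of Arabidopsis leaf wax, stood at 447 RPM in stage A, 168 RPM in B, 50.8 RPM in C, 105 RPM in D and 65.8 RPM in E. CER3 (LB17449, paired with AT5G57800) stood at 327, 211, 177, 184 and 94.5 RPM in the same order. The CER1 homologue AT1G02190 had 179, 78.5, 134, 61.0 and 42.8 RPM. Stage A was the highest stage for each of these enzymes and stage E or C the lowest. The other homologue, AT2G37700, had 211, 127, 11.6, 86.9 and 55.5 RPM, with its lowest value in stage C. All 4 fell in stage E against stage A, beside 13.5% of all genes. CER1 was 6.79-fold lower (6.28 to 7.34) and CER3 3.46-fold lower (3.22 to 3.72). Summed, the branch held 259 RPM in stage E and 1165 RPM in stage A. The 3 meristem markers summed to 1.31 RPM in stage E and 15.8 RPM in stage A. The epidermal markers summed to 71.5 RPM in stage E and 125 RPM in stage A. The mesophyll sum went the other way, at 8255 RPM in stage E and 646 RPM in stage A. Guard cell, phloem and xylem sums were also higher in stage E. The part of these cell types in the fall was not tested. In stage D against stage B, which does not use stage C, none of the 4 passed the rule, and their median log2 difference was -0.45, beside -0.28 over all genes.

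CER5 and WBC11, transporters among the members, also had their highest values in stage A. CER5 (LB02893, paired with AT1G51500), an ABCG-type transporter needed for wax to reach the Arabidopsis stem surface, stood at 224 RPM in stage A, 86.4 RPM in B, 28.1 RPM in C, 24.6 RPM in D and 45.8 RPM in E. It fell 2.60-fold (2.41 to 2.80) in stage B against stage A and 4.90-fold (4.44 to 5.41) in stage E against stage A. WBC11 (LB01357, paired with AT1G17840), the ABCG-type transporter of both wax and cutin precursors, stood at 346, 188, 193, 116 and 135 RPM from stage A to stage E. Its fall of 2.57-fold (2.41 to 2.74) in stage E against stage A passed the rule. No step between neighbouring stages did, although stage B against stage A passed it after scaling. WBC19, which is known in Arabidopsis for kanamycin resistance and not for cuticle lipids, stayed at or below 2.02 RPM.

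In the mature leaf the glycerol acyltransferases of cutin stood far lower than in stage D. Land-plant GPATs of this kind join fatty acids to the middle carbon of glycerol, and GPAT4, GPAT6 and GPAT8 make cutin precursors in Arabidopsis. GPAT4 (LB00049, paired with AT1G01610) stood at 402 RPM in stage A, 288 RPM in B, 493 RPM in C, 469 RPM in D and 26.4 RPM in E. GPAT8 (LB11293, paired with AT4G00400) stood at 226, 218, 149, 333 and 13.4 RPM in the same order. The values of both genes in stage E lay far below those of all 4 other stages. GPAT6 (LB06924, paired with AT2G38110), which in Arabidopsis serves flower cutin, stood at 27.8, 43.2, 82.3, 262 and 28.0 RPM from stage A to stage E and was highest in stage D. In stage E against stage D, GPAT4 fell 17.8-fold (15.9 to 19.8), GPAT8 24.8-fold (21.3 to 29.0) and GPAT6 9.33-fold (8.38 to 10.4).

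GPAT1, GPAT3 and GPAT5 fell in the same comparison. GPAT1, a tapetum enzyme in Arabidopsis, had 0.850 RPM in stage E and 11.5 RPM in stage D. GPAT3 had 0.850 RPM in stage E and 15.7 RPM in stage D, and GPAT5, the suberin enzyme of Arabidopsis roots, had 1.08 and 14.6 RPM in stages E and D. In all, 6 of 9 acyltransferases fell in stage E against stage D and 0 rose. Among all genes 6.59% fell and 13.0% rose, and among the 50 members 8 fell and 0 rose. After scaling, 10 members fell and 0 rose, including the same number of acyltransferases, with 1861 of all genes lower and 1111 higher. The unscaled acyltransferase median was -2.91 on the log2 scale and that of all genes 0.27. GPAT9, which serves membrane and storage lipids and not cutin, stood at 83.6 RPM in stage E and 59.4 RPM in stage D, and between 73.5 and 83.0 RPM in stages A to C. GPAT7, a relative of GPAT5 in suberin, had 14.8 RPM in stage C and at most 2.02 RPM elsewhere. GPAT2 had 5.05 RPM in stage A and 1 read in stage E. Summed over the 9 acyltransferases, the level was 154 RPM in stage E, against 1166 RPM in stage D, 7.55-fold lower (7.21 to 7.91). The epidermal markers summed to 71.5 RPM in stage E and 43.8 RPM in stage D, and the guard cell markers to 98.3 RPM in stage E and 50.2 RPM in stage D. KAT1 and MYB60 carried the guard cell sum, while FAMA had 4.17 RPM in stage E and 6.29 RPM in stage D. The phloem sum was also higher in stage E. The mesophyll sum was lower in stage E, and the xylem sum stood at 195 RPM in stage E and 291 RPM in stage D. CYP86A1 and ASFT, used as root endodermis markers, summed to 16.0 RPM in stage E and 55.8 RPM in stage D. The part of these cell types in the fall was not tested.

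Cutin genes outside the rule of choice also fell late. The other pathway genes came from a list of 38 loci, chosen with earlier results of these data known. The list had 32 measured loci and 6 (BDG1, LTPG1, LTPG2, SHN2, SHN3 and DEWAX) that were not analysed here. Of its 9 measured cutin genes, 8 fell in stage E against stage D and 0 rose, beside the 6.59% and 13.0% of all genes. These were the fatty acid hydroxylases CYP86A2, CYP86A4, CYP86A7, CYP86A8, CYP77A4 and CYP77A6, the acyltransferase DCR and the oxidoreductase HTH. CYP77A4 stood at 47.8 RPM in stage A, 68.6 RPM in B, 26.8 RPM in C, 156 RPM in D and 13.1 RPM in E. DCR stood at 123, 182, 110, 154 and 13.7 RPM in the same order. In stage E against stage D, DCR fell 11.3-fold (9.69 to 13.2) and CYP86A8 3.70-fold (3.46 to 3.95). ABCG32, a cutin precursor transporter, stood at 284 RPM in stage E and 380 RPM in stage D, which did not pass the rule.

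The cutin hydroxylases were highest in stage D, except CYP86A4, which was highest in stage C at 248 RPM. Summed, the 6 CYP86A and CYP77A hydroxylases held 387 RPM in stage A, 336 RPM in B, 420 RPM in C, 1091 RPM in D and 251 RPM in E. All 6 rose in stage D against stage B, beside 10.4% of all genes. The epidermal markers went the other way, at 43.8 RPM in stage D and 116 RPM in B. ATML1, PDF2, PDF1 and GL2 each fell, ATML1 and PDF2 not after scaling. The meristem sum was also lower in stage D. Guard cell, phloem and xylem sums were higher, and the mesophyll sum stood at 31243 RPM in stage D and 2092 RPM in B. The part of these cell types in the rise was not tested. CYP86A7 stood at 313 RPM in stage D and 67.3 RPM in B, and CYP86A8 at 308 and 70.5 RPM. How reads shared by such close relatives were counted is not stated, so the share of each is uncertain. GPAT6 rose 6.06-fold (5.59 to 6.56) in the same comparison, while GPAT4 and GPAT8 did not pass the rule there. HTH ran the other way, at 1348 RPM in stage A, 735 RPM in B, 464 RPM in C, 114 RPM in D and 9.27 RPM in E. MYB16 and MYB106, MYB factors that promote cuticle formation in Arabidopsis, fell in stage E against stage D: MYB16 had 4.09 RPM in stage E and 21.4 RPM in stage D, and MYB106 had 6.49 and 25.7 RPM in stages E and D. Of the 7 measured regulators of the list, 2 fell and 1 rose there, beside 6.59% and 13.0% of all genes, and 4 lay above 0. MYB94 had 15.8 RPM in stage E and 10.1 RPM in stage D, and MYB96 had 5.87 and 3.67 RPM, without passing the rule.

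**Figure D3:**
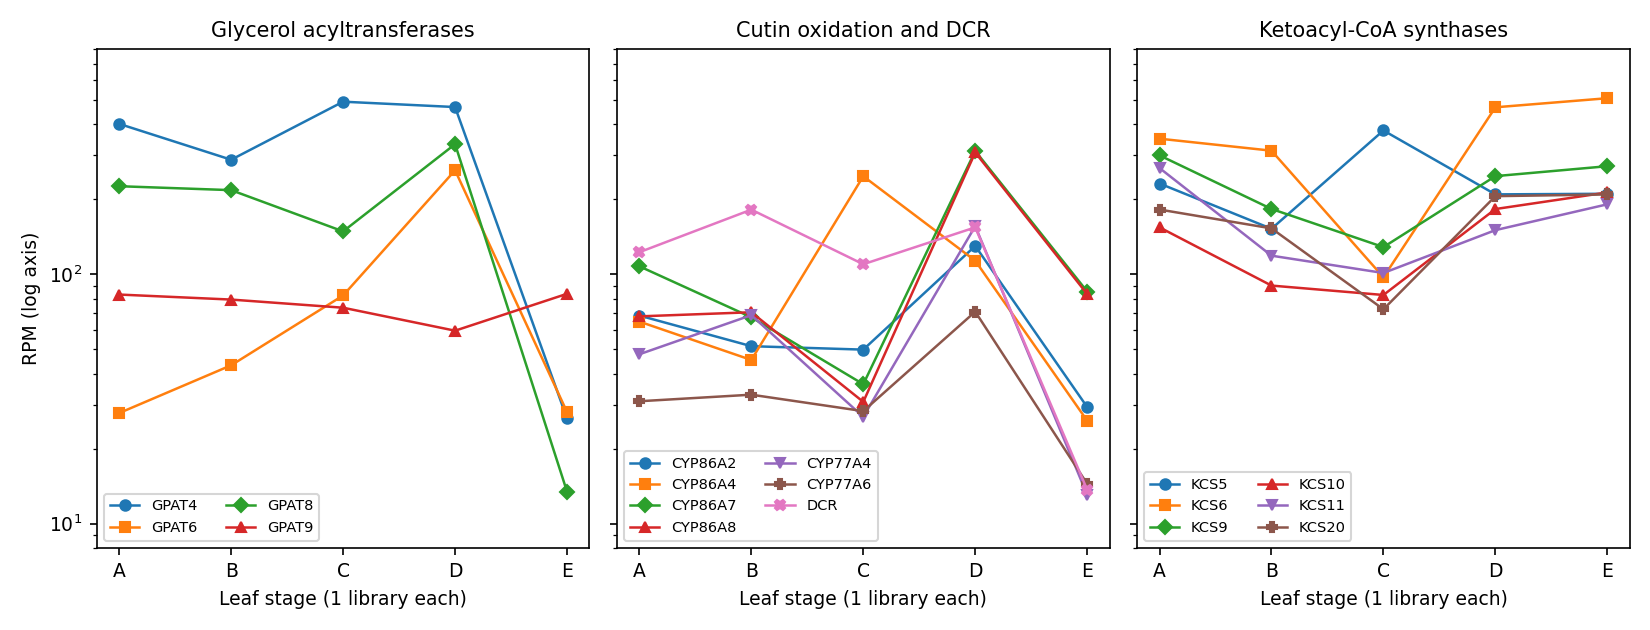
RPM (log axis) in the 5 leaf stages (1 library each) for glycerol acyltransferases (left), cutin hydroxylases with DCR (middle) and 6 ketoacyl-CoA synthases (right). GPAT4, GPAT6, GPAT8 and the 7 cutin genes end below their stage D values in stage E, while the synthases end between 191 and 509 RPM.

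The ketoacyl-CoA synthases, which set the chain length made by the elongase, showed no call between stage D and the mature leaf. Of the 21 synthases 0 fell and 0 rose in stage E against stage D, beside 6.59% and 13.0% of all genes. Their median log2 difference was 0.13, below the median of all genes. Their summed ratio there was 1.10 (1.08 to 1.11), and 0.849 after scaling. KCS6 (LB03926, paired with AT1G68530), the main wax synthase of Arabidopsis shoots, stood at 350.2 RPM in stage A, 313 RPM in B, 97.4 RPM in C, 468 RPM in D and 509 RPM in E. KCS10 (FIDDLEHEAD), which keeps epidermal surfaces of Arabidopsis organs from fusing, stood at 154, 90.2, 82.7, 183 and 213 RPM. KCS20, which acts with KCS2 in Arabidopsis, stood at 182, 153, 72.4, 206 and 209 RPM. For these synthases stage C was the lowest stage and stage E the highest in the values as deposited. The scaling factors shifted stage E against stage D by -0.367 on the log2 scale, more than each of these synthases rose. After scaling all of them therefore stood higher in stage D than in stage E. KCS10 was then lowest in stage B, because the shift in stage C against stage B was 0.312. KCS9, an enzyme of waxes and suberin in Arabidopsis, stood at 300.2, 183, 129, 248 and 272 RPM from stage A to stage E. KCS19 had 25.8, 25.3, 11.1, 76.5 and 101 RPM from stage A to stage E and rose 3.93-fold (3.32 to 4.67) in stage E against stage A.

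The remaining synthases followed mixed courses. KCS4 stood at 190.1, 72.3, 217, 106 and 100.2 RPM from stage A to stage E, and KCS11 at 267, 119, 101, 150.5 and 191 RPM. Both fell in stage B against stage A, KCS4 by 2.63-fold (2.42 to 2.85) and KCS11 by 2.25-fold. KCS5, a close relative of KCS6, stood at 232, 152, 378, 209 and 211 RPM, so its highest stage was the lowest of KCS6. KCS18, known as FAE1 for its part in the seed oil of Arabidopsis, stayed between 41.2 and 62.5 RPM, and KCS17 between 37.4 and 72.9 RPM. KCS13, also named HIC for its effect on stomatal density in Arabidopsis, had 13.5, 6.83, 26.9, 5.93 and 6.88 RPM from stage A to stage E. KCS13 was highest in stage C, as were KCS1, KCS2, KCS4, KCS5, KCS8, KCS12, KCS14, KCS15, KCS16, KCS18 and KCS21. Single synthase values in stage C are uncertain, as described below. KCS16 had 6.06, 6.58, 20.8, 1.10 and 3.55 RPM and fell 5.99-fold in stage D against stage B.

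The synthases summed to 1994 RPM in stage A, 1328 RPM in B, 1851 RPM in C, 1894 RPM in D and 2074 RPM in E. In stage E against stage A, 3 of 21 rose (KCS3, KCS12 and KCS19) and 0 fell, but after median-of-ratios scaling 2 rose and 2 fell. Among all 50 members 14 fell and 3 rose in that comparison, while 13.5% of all genes fell and 18.5% rose. The members that fell were 6 acyltransferases, the 4 genes of the alkane branch, the 2 transporters CER5 and WBC11, LACS2 and FAR4. The summed ratio of stage E to stage A was 1.04 for the synthases (1.02 to 1.06; 0.957 after scaling), 0.194 for the acyltransferases (0.184 to 0.204) and 0.222 for the alkane branch (0.213 to 0.231).

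In stage C many synthases stood above or below their values in all other stages. KCS1 (LB00009, paired with AT1G01120), an elongation enzyme of Arabidopsis wax, had 9.26 RPM in stage A, 3.32 RPM in B, 208 RPM in C, 5.87 RPM in D and 5.25 RPM in E. KCS15 had 26.3 RPM in stage C and at most 2.24 RPM elsewhere. KCS2 stood at 209 RPM in stage C and between 74.7 and 86.3 RPM elsewhere. Values of all 3 in stage C lay above those of every other stage. KCS6 and KCS20 had their lowest values there. In stage C against stage B, 11 synthases rose and 3 fell (12 and 1 after scaling), beside 15.2% and 22.8% of all genes. In stage D against stage C 4 rose and 10 fell, beside 17.3% and 19.3%. The summed ratio of stage D to stage C was 1.02 (1.01 to 1.04). The 9 synthases with a mean below 40 RPM summed to 222 RPM in stage C and between 58.7 and 77.4 RPM elsewhere. All 9 stood higher in stage C than in stage B, and 7 of them passed the rule. The 7 synthases of chromosome 1 held 61.1% of synthase reads in stage C and between 44.0% and 47.7% elsewhere, and 4 of the 11 that rose were among them. Reads shared between close relatives could be counted for either, so values of single synthases in stage C are uncertain.

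**Figure D4:**
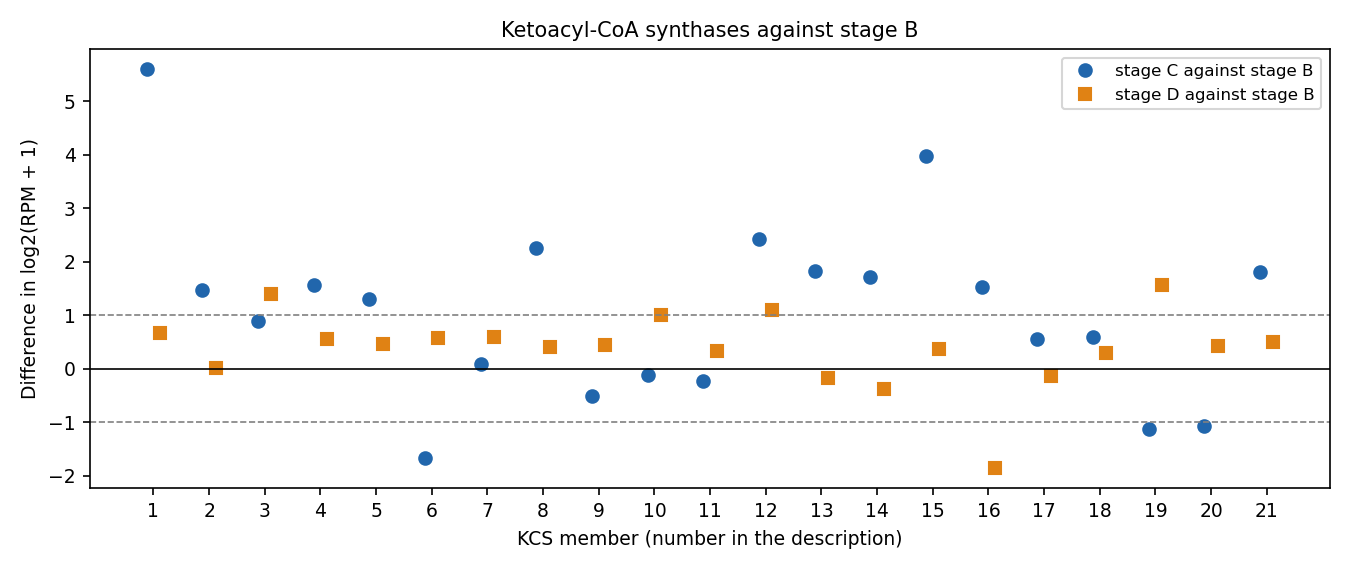
Difference in log2(RPM + 1) for each of the 21 ketoacyl-CoA synthases in stage C against stage B (circles) and stage D against stage B (squares), with dashed lines at the rule of size. Differences span -1.68 to 5.60 for stage C and -1.85 to 1.56 for stage D.

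How much of this exchange belongs to the stage and how much to the skew of the stage C library cannot be told apart. Over all 50 members, 15 rose and 8 fell in stage C against stage B, beside 15.2% and 22.8% of all genes. After scaling 20 members rose and 5 fell, with 3568 of all genes higher and 2986 lower. In stage D against stage C 11 rose and 13 fell, beside 17.3% and 19.3%. Of the 16 members paired with chromosome 1, 5 rose and 3 fell in stage C against stage B, and of the 34 paired with other chromosomes, 10 rose and 5 fell. After scaling these counts were 8 and 3 for chromosome 1, and 12 and 2 for the others. The direct comparison of stage D with stage B leaves stage C out. There 8 members rose and 2 fell, beside 10.4% of all genes that rose and 19.3% that fell. After scaling 12 members rose and 2 fell, with 2777 of all genes higher and 2093 lower. The members that rose were KCS3, KCS10, KCS12, KCS19, GPAT5, GPAT6, FAR1 and FAR5, and those that fell were KCS16 and CER5. Of the synthases 17 of 21 lay above 0, with a median log2 difference of 0.44, and that of all genes was -0.28.

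Of the acyl-CoA synthetases 1 passed the rule in stage E against stage A, beside 13.5% of all genes lower and 18.5% higher. LACS2 (LB02764, paired with AT1G49430), the synthetase of cutin monomers in Arabidopsis, stood at 453 RPM in stage A, 326 RPM in B, 301 RPM in C, 269.7 RPM in D and 191 RPM in E. It fell 2.37-fold (2.24 to 2.50) in stage E against stage A. LACS6 and LACS7 are peroxisomal enzymes of fatty acid breakdown that the wording of the rule also took. LACS6 stood at 146, 103, 179, 89.9 and 177 RPM from stage A to stage E and was called in no comparison. LACS7 stood at 208, 192, 45.8, 159 and 299 RPM, lowest in stage C and highest in stage E.

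The 6 fatty acyl reductases, which make primary alcohols, stayed below 20 RPM in every stage. FAR1, FAR4 and FAR5 make the alcohols of Arabidopsis suberin. FAR1 stood at 16.5, 5.62, 1.82, 13.1 and 13.6 RPM from stage A to stage E, FAR4 between 3.73 and 14.8 RPM and FAR5 was lowest in stage B at 1.45 RPM. FAR6, FAR7 and FAR8 stayed below 5 RPM, where the rule calls no change. FAR1 and FAR5 both fell in stage B against stage A, beside 3.07% of all genes, and rose in stage D against stage B, beside 10.4%. Both calls of each gene use its stage B value. In stage D against stage B, 4 of the 6 reductases lay below 0. FAR4 was among them, at 3.73 RPM in stage D and 8.09 RPM in B.

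The remaining members included genes of other lipid pathways. FAH1 and FAH2, which hydroxylate the fatty acids of sphingolipids, had 15.1 and 18.2 RPM in stage E, against 35.4 and 41.2 RPM in stage D. Both fell, FAH1 by 2.35-fold and FAH2 by 2.27-fold (1.96 to 2.65). AT3G02590, described as a fatty acid hydroxylase, had 38.6, 12.6, 9.59, 13.6 and 28.0 RPM from stage A to stage E. SHN1, an AP2-type factor that raises wax and cutin synthesis in Arabidopsis, had 0.337 RPM in stage A, 1.63 RPM in B, 2.17 RPM in C, 0.305 RPM in D and no reads at all in stage E, which allows up to 0.232 RPM. It had 31 reads in stage C, its highest stage, and was never callable.

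Of 12 measured wax genes of the pathway list 5 fell and 0 rose in stage E against stage D, beside 6.59% and 13.0% of all genes. These were CER2, which extends wax chains in Arabidopsis, the alkane hydroxylase MAH1, the wax ester synthase WSD1, the cytosolic carboxylase ACC1 and the thioesterase FATB. WSD1 stood at 36.4 RPM in stage A, 25.1 RPM in B, 0.350 RPM in C, 7.39 RPM in D and 2.39 RPM in E. ACC1, which supplies malonyl units for elongation, had 204 RPM in stage E and 416 RPM in stage D. The elongase partners KCR1, CER10 and PAS2 were called neither higher nor lower there, with KCR1 at 31.5 RPM in stage E and 43.4 RPM in stage D. MYB30, which activates very-long-chain fatty acid genes in Arabidopsis, rose to 24.1 RPM in stage E, against 11.5 RPM in stage D, a call lost after scaling. Over the 32 genes of the list, 17 fell and 1 rose in stage E against stage D. In stage D against stage B 10 rose and 3 fell, beside 10.4% and 19.3% of all genes. In stage B against stage A 3 fell and 0 rose, beside 3.07% and 7.4% of all genes.

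The 3 suberin genes of the list were also measured, and CYP86A1 and ASFT among them mark root endodermis as well. CYP86A1 had 24.3 RPM in stage D, its highest stage, and 5.18 RPM in stage E. ASFT had 31.5 RPM in stage D and 10.8 RPM in stage E. CYP86B1 was highest in stage A at 12.3 RPM. CYP86A1 and ASFT rose in stage D against stage B and fell in stage E against stage D, as GPAT5 did. Among all genes 10.4% rose in the first comparison and 6.59% fell in the second. CYP86B1 went the other way in stage D against stage B, at 1.28 RPM in stage D and 4.89 RPM in B, too low to be called.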

How the data were processed

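The deposited table gives 1 value per gene and stage. Per the file headers the values are RPKM, but the deposited values are RPM: in every stage 100% of them are, within 0.001 reads, whole multiples of the value of a single read, which gave back the reads. For the aligner, the assembly and the treatment of ambiguous reads, no source used here gives details. Python 3.11.15, NumPy 2.4.6, pandas 2.3.3 and SciPy 1.17.1 were used. A call needed a difference of 1 in log2(RPM + 1), and 5 RPM in the higher stage, over all 18327 genes. Counting intervals are exact (Clopper-Pearson). With 1 sample per stage no count test was possible. Calls and intervals were tested on simulated data. Alternatives were pseudocounts of 0.1 and 5, no minimum, median-of-ratios scaling and a call by the counting interval; leaving out stage C for the highest stage was added after seeing the data. Members, lists and roles were chosen with earlier results of these data known. Any member could be named, with values in all stages mainly for members that reached 20 RPM and other pathway genes when called. Symbols other than numbered names in the descriptions were paired with loci by hand from general knowledge. No sequence table was used here.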

Additional observations from a re-analysis of the deposited data

How the results depend on the processing

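Median-of-ratios scaling moved the median log2 difference of all genes by -0.10 in stage B against A, 0.26 in C against B, 0.07 in D against C, 0.29 in D against B, -0.28 in E against D and -0.09 in E against A. With it, 5 members were lower in C against B instead of 8, and 11 members were highest in stage D and 3 in stage E instead of 6 and 8. In D against B, the members that rose numbered 3 with a pseudocount of 5 and 4 by the counting interval, instead of 8. Those that fell there numbered 1 with a pseudocount of 5, 4 with no minimum and 4 by the counting interval, instead of 2. A pseudocount of 0.1 gave 1 member higher in B against A and 1 in E against D, and no minimum gave 2 in E against D, instead of 0. Members highest in stage B numbered 1 with no minimum and 1 with stage C left out, instead of 0, and those highest in stage E numbered 13 with stage C left out. The cause of these shifts was not tested. The other counts over all 50 members stayed within 1.5 times the reported count. Counts within roles moved more with scaling: in E against D, 2 genes of the alkane branch were lower instead of 0, and in D against B, 4 acyltransferases were higher instead of 2. The 93 called differences of single members could not change sign, because a pseudocount keeps the sign and the scaling shifts were smaller than the rule of size. Scaling moved 34 of them by more than the half-width of their counting interval. A pseudocount of 5 moved 38 and a pseudocount of 0.1 moved 5. The call of 6 falling acyltransferases in E against D was also 6 after scaling. No paired analysis was possible because each stage has 1 column, and for the same reason no replicate could be left out. Depth limits members near 5 RPM, above all in stage A, whose library was the smallest.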

Other observations

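Several genes of the same pathways carry descriptions that the wording of the choice does not match, and these were picked after their values had been seen. MS2, a fatty acyl reductase needed for the pollen wall of Arabidopsis, stood at 470.3 RPM in stage A, 244 RPM in B, 89.9 RPM in C, 21.1 RPM in D and 23.2 RPM in E. It was 20.3-fold lower in stage E than in stage A (95% counting interval 18.0 to 22.9). CER4, the reductase of Arabidopsis wax alcohols, had 15.5, 4.29, 2.31, 10.9 and 14.8 RPM in the same order. The ABCG-type transporters ABCG13, a flower cuticle exporter in Arabidopsis, and ABCG15 ran like CER5. ABCG13 stood at 286 RPM in stage A, 64.6 RPM in B, 34.7 RPM in C, 18.9 RPM in D and 34.1 RPM in E. ABCG15 stood at 145, 44.3, 14.2, 12.4 and 19.5 RPM from stage A to stage E. Among the long-chain acyl-CoA synthetases, LACS1, an enzyme of Arabidopsis wax and cutin also known as CER8, had 123 RPM in stage E and 67.9 RPM in stage D. LACS9 was highest in stage C at 228 RPM, and LACS4 was lowest there at 48.3 RPM.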
